A study of Mus musculus with 12 samples.

Results

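The libraries described here were the 6 outer hair cell (OHC) pools of a series of 12, chosen by their labels alone (outer hair cells, P0, WT, replicates 1 to 6). The other 6 libraries were inner hair cell (IHC) pools of the same age and label. Both cell types were sorted by fluorescence from P0 mouse cochleae (organ of Corti), and each pool drew on several newborn pups of both sexes. IHCs were collected as Atoh1-GFP positive cells, and OHCs as cells that carried Atoh1-GFP together with Insm1-GFP-Cre and the Cre-dependent R26-TdTomato reporter. The label WT therefore covers mice with reporter alleles, among them the altered Insm1 allele that drives Cre, so the Insm1 level is tied to the sort. Whether an IHC and an OHC library were drawn from the same pups is not given in the sources used here. Where 2 kinds of pool differ, a difference in the make-up of the sorted cells and a difference in RNA per cell cannot be told apart in bulk samples. Nothing in the labels ties a replicate number to a shared litter, and the p-values below measure the spread between pools.

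OHCs are the sensory cells that amplify sound-evoked vibration in the mammalian cochlea, whereas IHCs pass the signal to the auditory nerve. Both carry a bundle of actin-filled stereocilia with the mechanotransduction channel at its tips, and both depend on the transcription factors Atoh1 and Pou4f3. At birth the cells are committed but immature: electromotility, which rests on the motor protein prestin (Slc26a5), is acquired later. Insm1 is a zinc finger factor known to hold newborn OHCs apart from the IHC fate.

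The 6 OHC libraries held 21162439 to 29088104 counts on genes once ribosomal RNA (rRNA) genes were left out, against 13565175 to 27710829 in the IHC libraries. Levels below are CPM, counts scaled to that total after TMM normalization, and TPM, counts scaled by exon length as well among protein-coding genes, where levels of different genes are compared. Differences between OHC and IHC pools are log2 values from edgeR with Benjamini-Hochberg adjustment over the 13375 genes tested, and positive values are higher in OHCs. Of those genes 2.46% were called OHC-higher and 3.96% IHC-higher, with a median log2 difference of -0.05. These shares are the background for the counts of calls in the lists and families below. No pair of OHC pools agreed within sampling noise, so all 6 were kept as separate samples. OHC replicate 2 stood apart in that 33.3% of the read pairs in its file fell outside annotated features, against 13.8% to 21.7% in the other OHC pools.

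Each OHC marker gene was higher in all 6 OHC pools than in any IHC pool. These 7 genes had been chosen with earlier results of these data known. Their direction and the gap between the ranges are therefore a check of the labels and not independent evidence. All 7 were called OHC-higher, beside 2.46% of all genes tested. Insm1 (chromosome 2, 146063841-146066940, GRCm39) stood at 50.8, 40.4, 81, 82.7, 83.2 and 125 CPM in OHC replicates 1 to 6 and at 0.591, 0.0355, 0.116, 0.296, 0.0455 and 0.645 CPM in IHC replicates 1 to 6. Neurod6 (chromosome 6, 55654807-55658326), a neurogenic bHLH factor, stood at 14, 42.7, 31.1, 56.1, 43.4 and 16.6 CPM in the OHC pools and at most 0.0985 CPM in any IHC pool. Replicates 1 and 6 were the low pools for Neurod6 and replicates 2 and 1 for Insm1, and replicate 6 was the highest pool for Insm1. For Neurod6 28.5% of the exon length is shared with an antisense gene, so its counts are less certain because the strand setting of the counting is not given in the sources used here.

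Bcl11b (chromosome 12, 107876656-107970417), a zinc finger factor, had a lowest, median and highest level of 56.2, 96.2 and 128 CPM in OHC pools, and 0.0807, 0.462 and 1.67 CPM in IHC pools. Efna5 (chromosome 17, 62909956-63188312), a membrane-bound ligand of Eph receptors, had a lowest, median and highest level of 294, 312 and 461 CPM in OHC pools, and 0.409, 3.90 and 12.9 CPM in IHC pools. Robo2 (chromosome 16, 73688727-75244270), a receptor for Slit proteins, had a lowest, median and highest level of 309.9, 429 and 451 CPM in OHC pools, and 21.9, 30.7 and 50.9 CPM in IHC pools. Cdh1 (chromosome 8, 107329941-107396880), the epithelial adhesion protein E-cadherin, was the most abundant of these 4 per length at 1610.2 ± 173 TPM (SD, n = 6), which placed it at rank 35 among nuclear protein-coding genes of the OHC pools. In contrast, Myo6 (chromosome 9, 80072282-80219011), an unconventional myosin of the hair bundle base, was abundant in both cell types, at 4806, 5182, 3809.7, 4763, 4463 and 4776 CPM in OHC replicates 1 to 6 and 3216, 3742, 3319.7, 3501, 2901 and 3507 CPM in IHC replicates 1 to 6. Its log2 difference was 0.46 ± 0.14 (SE), adjusted p = 0.048. That call was lost when any one of OHC replicates 1, 2, 4, 5 and 6 or IHC replicates 3, 4, 5 and 6 was left out (adjusted p 0.061 to 0.11).

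**Figure D1:**
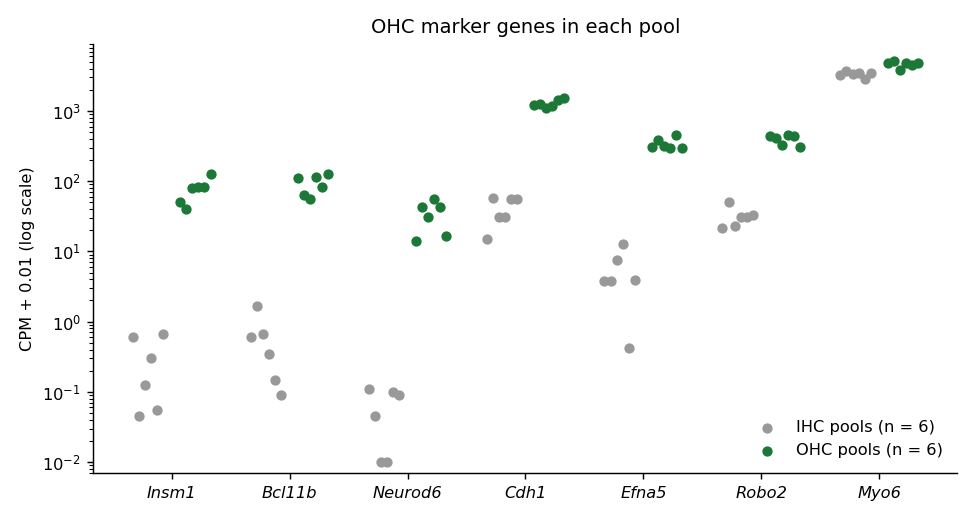
Levels of the 7 OHC marker genes in each of the 6 OHC pools (green) and 6 IHC pools (grey), as CPM plus an offset of 0.01 on a log axis, with points of one gene in order of replicate number. The genes were chosen with earlier results of these data known. OHC and IHC pools do not overlap for any of them. Myo6 has the smallest gap, with its lowest OHC pool at 3809.7 CPM and its highest IHC pool at 3742 CPM.

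Protein-coding genes of the nucleus took 94.2% ± 1.24 (SD, n = 6) of the non-rRNA counts of OHC pools, and those of the mitochondrion took 3.91% ± 0.836. Long non-coding RNAs (lncRNAs) took 0.992% ± 0.263 of these counts, small non-coding RNAs 0.285% ± 0.0690, and TEC loci, which are annotated transcripts whose kind awaits experimental support, 0.298% ± 0.171. OHC replicate 2 was the highest OHC pool for lncRNA (1.49%), TEC (0.619%) and mitochondrial protein-coding counts (5.13%). The rRNA genes, of which the mitochondrial pair held most counts, took 23.4% to 36.4% of all counts on genes in OHC pools.

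Each OHC pool had at least 1 count for 17836 to 19888 genes, of which 13511 to 14161 were protein-coding. In IHC pools the number of genes with a count was 17178 to 18554. The means, 19005.5 ± 786 and 17741.5 ± 501 (SD, n = 6 each), differed by a two-sided exact permutation test (p = 0.015, 0.043 after adjustment over 10 library quantities). The difference remained at the depth of the shallowest library (17998.5 against 16895 genes, exact permutation p = 0.022), whereas for genes with at least 10 counts the means of 14307 and 13429 were not told apart (exact permutation p = 0.12). Counts were also spread over more genes in OHC pools: 833 to 988 genes together held 50% of the non-rRNA counts, against 604 to 871 in IHC pools (exact permutation p = 0.011, adjusted 0.043). The 604 was IHC replicate 1. Without it the difference in means was 68 genes (exact permutation p = 0.026), against 107.5 with all libraries. TEC shares were higher in OHC pools as well (0.298% against 0.153%, exact permutation p = 0.017, adjusted 0.043), but without any one of IHC replicates 1, 2, 3 and 5 this exact permutation p was 0.061 to 0.065, and without OHC replicate 2 the difference was 0.0806 percentage points, against 0.145 with all libraries. The part of the reads outside annotated features was 19.2% ± 7.41 in OHC pools and 12.5% ± 2.63 in IHC pools (exact permutation p = 0.026, adjusted 0.052). Its bearing on the quantities above was not tested. Without OHC replicate 2 the difference in this part was 3.87 percentage points. For the shares of rRNA (29.1% against 34.1%), mitochondrial protein-coding (3.91% against 5.10%), nuclear protein-coding (94.2% against 93.3%) and small non-coding RNA counts (0.285% against 0.303%), the exact permutation p was 0.16 to 0.998. Without IHC replicate 1, which held 1.13% small non-coding RNA, the OHC pools were higher by 0.148 percentage points (exact permutation p = 0.0065). The lncRNA share (0.992% against 0.776%) had an exact permutation p of 0.043, adjusted 0.072.

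**Figure D2:**
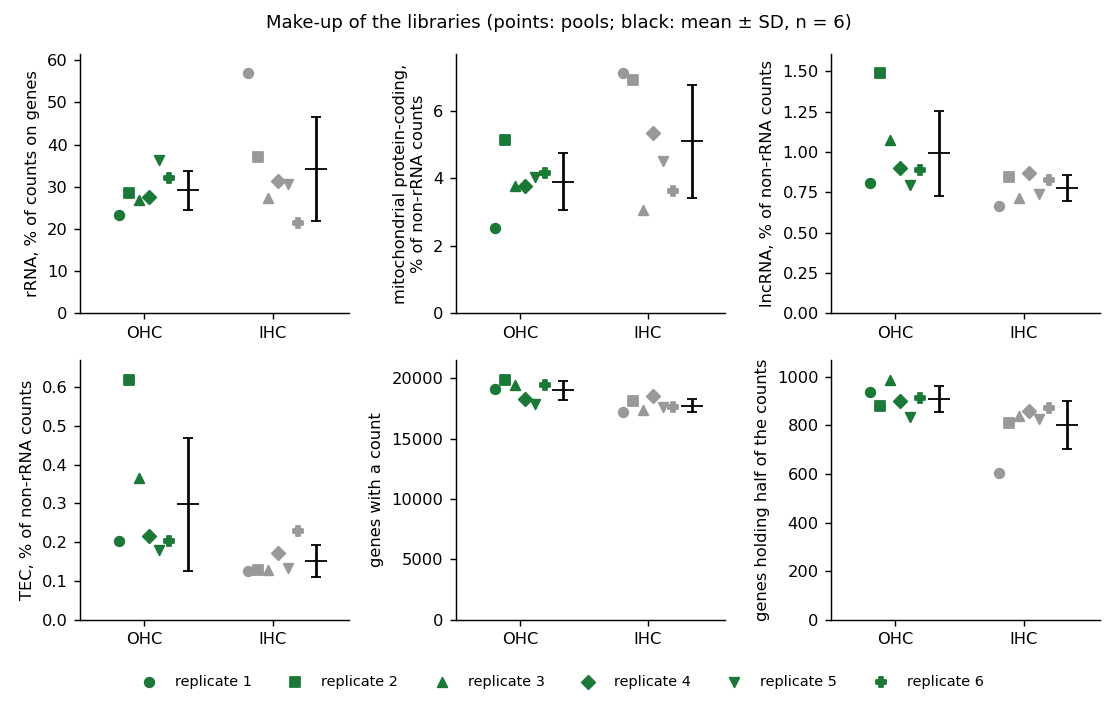
Make-up of the 6 OHC (green) and 6 IHC (grey) libraries: rRNA as a percentage of counts on genes, 3 gene classes as percentages of non-rRNA counts, the number of genes with a count, and the smallest number of genes that together hold 50% of the counts. Symbols give the replicate and black bars the mean ± SD (n = 6); OHC replicate 2 is the highest pool for lncRNA (1.49%) and TEC (0.619%).

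Of 21627 protein-coding genes in the files, 12600 averaged at least 1 TPM over the OHC pools, and 9335 reached 1 TPM in every one of the 6. A further 4480 reached it in 1 to 5 pools, and 5743 had no count in any OHC pool. At the upper end 8675 genes averaged at least 10 TPM, 1898 at least 100 TPM and 72 at least 1000 TPM. The 20 most abundant nuclear genes together held 7.33% ± 0.610 (SD, n = 6) of the protein-coding TPM, and the 13 mitochondrial genes 16.7% ± 3.37.

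Calcium-binding proteins and their regulators were among the most abundant. Calm2, which encodes the calcium sensor calmodulin, held rank 3 among nuclear genes (3848 to 5896 TPM) and Calm3 at rank 37 (1201 to 2401 TPM). Pcp4, which modulates calmodulin, held rank 6 (3208 to 5198 TPM). Calm2 was lower in OHC than in IHC pools (967 to 1498 CPM against 1749 to 3953 CPM), with a log2 difference of -1.12 ± 0.19 (SE), adjusted p = 9.3e-04. Of the 15 tested genes in a list of 18 calcium-binding proteins, 5 were IHC-higher, beside 3.96% of all genes tested, and 0 OHC-higher (10 not called), with a median log2 difference of -0.47. Besides Calm2 the 5 were S100a1, Calb2, Pvalb and Cabp2, and Cabp2 lost its call in 10 of the 12 fits that left out 1 library. S100a1 had a lowest, median and highest level of 58.4, 129 and 358 CPM in OHC pools, with replicate 4 highest, and 465, 822 and 988 CPM in IHC pools.

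Cytoskeletal and chaperone genes came next. Actb, which encodes beta-actin, ranked 2 at 4418 to 7375 TPM, with replicate 5 highest and replicate 1 lowest. Hsp90ab1, a cytosolic chaperone, was at 2388 to 2909 TPM and was among the 10 steadiest genes of all (CPM coefficient of variation 5.33%). Ywhae, a 14-3-3 adaptor protein, was at 1972 to 2495 TPM. Of 23 tubulin and microtubule genes, 19 were tested. Of these 7 were IHC-higher and 1 OHC-higher (11 not called), beside 3.96% and 2.46% of all genes tested. Their median log2 difference was -0.79. Without OHC replicate 4 the IHC-higher count was 4. Tuba1a, an alpha-tubulin, ranked 36 at 1599 ± 261 TPM and had a log2 difference of -1.11 ± 0.17 (SE), adjusted p = 4.6e-04. Tubb2b, the 1 OHC-higher member, had a lowest, median and highest level of 40.4, 69.6 and 126 CPM in OHC pools, and 26.9, 31.6 and 43.9 CPM in IHC pools, and its call was lost without OHC replicate 4 or 5. By contrast Dpysl3 and Map1b, which bind microtubules, were abundant at 771 ± 79.2 TPM and 486 ± 99.2 TPM and had log2 differences of -0.04 and -0.03 (adjusted p = 0.91 and 0.93).

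Genes of protein synthesis and energy metabolism formed the next group. Eef1a1 and Eef2, the elongation factors, ranked 9 and 12 at 3432 ± 393 TPM and 2668 ± 426 TPM. Among 21 translation factors, all tested, 2 were OHC-higher and 0 IHC-higher, beside 2.46% and 3.96% of all genes tested. The median CPM coefficient of variation of the 21 was 17.3%. The 2 were Eif1ax and Eif4a2, whose calls were both lost without IHC replicate 5 or 6 or OHC replicate 1, 2, 5 or 6. Rpl41, Rps3a1 and Rpl4, which encode ribosomal proteins, ranked 14, 17 and 18. Rpl41 was the least even of the 3, from 1389.9 to 3590.5 TPM. The 100 genes for cytosolic ribosomal proteins, grouped by symbol after the levels had been seen, held 4.33% ± 0.792 (SD, n = 6) of the protein-coding TPM, and 95 of them averaged at least 1 TPM. Atp5f1b, the beta subunit of ATP synthase, ranked 15 at 2509 ± 394 TPM, and the 98 nuclear genes for respiratory chain and ATP synthase subunits held 1.5% ± 0.212. Of 19 glycolysis genes, 18 were tested, 1 was OHC-higher and 2 IHC-higher, beside 2.46% and 3.96% of all genes tested. Ldhb, a lactate dehydrogenase subunit, was the OHC-higher one, at 201 to 388 CPM in OHC pools and 48.2 to 115 CPM in IHC pools. Gapdh and Hk1 were the IHC-higher ones. Psat1, an enzyme of serine synthesis, ranked 10 at 3341 ± 288 TPM, with a log2 difference of 0.55 ± 0.17 (SE), adjusted p = 0.058.

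Other genes of the leading 20 had varied roles. Ftl1, the ferritin light chain that stores iron, was at 4559 ± 567 TPM, and Selenow, a small selenoprotein, at 4148 ± 664 TPM. Nrep, known from regenerating neurons, was at 4500.3 ± 520.3 TPM. Tnc, which encodes the matrix protein tenascin C, was at 2401 ± 203 TPM and had a CPM coefficient of variation of 7.43% among OHC pools. Mfap4, a microfibril-associated protein, was at 2893 ± 601 TPM and was OHC-higher by a log2 difference of 1.06 ± 0.24 (SE), adjusted p = 0.011. Nnat, an imprinted gene for a small membrane protein, was the most uneven of the 20, at 949, 3297, 964, 2662, 3217 and 2493 TPM in replicates 1 to 6. OHC replicates 1 and 3 were the low pools for Nnat, and the other 4 lay at 2493 TPM or more. Ccer2 ranked 7 at 4163 ± 795 TPM, but 28.8% of its exon length is shared with an antisense gene, as is 34.9% for Hsp90ab1, 26.5% for Ftl1 and 23.1% for Atp5f1b.

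**Figure D3:**
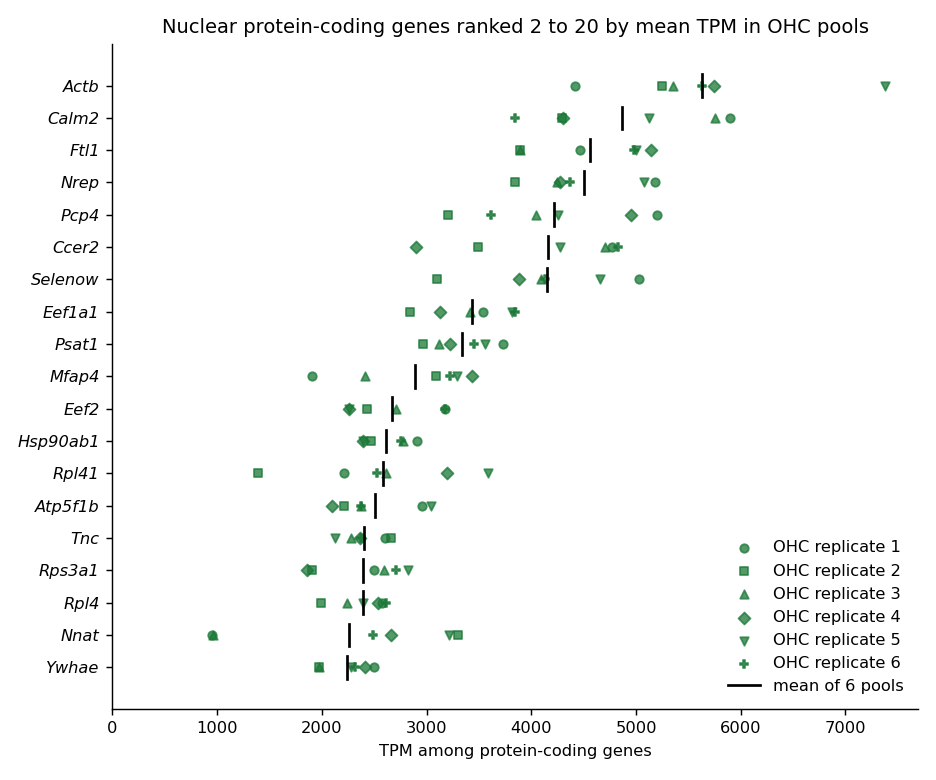
TPM among protein-coding genes for the nuclear genes ranked 2 to 20 by mean TPM in OHC pools, with 1 symbol per replicate and a black bar at the mean of 6 pools. Actb has the highest mean of those shown (4418 to 7375 TPM), and Nnat shows the widest relative range (949 to 3297 TPM).

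The 13 mitochondrial genes split into 7 that never fell below 238 CPM in an OHC pool and 6 that never exceeded 15.8 CPM. Of the 7, mt-Co1, mt-Nd1 and mt-Cytb were highest at 52948 ± 14989 TPM, 37428 ± 11269 TPM and 36319.6 ± 8244 TPM. They encode subunits of respiratory complexes IV, I and III. In contrast mt-Co2, mt-Co3, mt-Atp8, mt-Nd3 and mt-Nd4l never exceeded 13.7 TPM in an OHC pool, and mt-Atp6 lay at 3.70 to 15.8 CPM. The pseudogene Atp6-ps carried 23.1 to 105 CPM in the same pools, with replicate 5 highest for both. Reads that align equally well to several places are left out by the counter's usual setting, and the part of this in the low values was not tested. mt-Nd2, mt-Nd4 and mt-Nd5 were lower in OHC than in IHC pools, with log2 differences of -1.31, -0.83 and -0.73 (adjusted p = 0.018, 0.015 and 0.029).

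Genes that define hair cells were among the abundant ones. All 27 genes of a pan-hair-cell list averaged at least 1 TPM in the OHC pools and 22 averaged at least 100 TPM, with a median of 232 TPM. Pou4f3, a POU factor needed for hair cell survival, ranked 28 at 1889 ± 314 TPM. Atoh1, the factor that starts hair cell differentiation and whose locus drives the sort reporter, ranked 91 at 829.9 ± 124 TPM. Rasd2, a small GTP-binding protein, was at 1904 ± 304 TPM, and Ptprq, a phosphatase of the stereocilia base, at 1662 ± 222 TPM. Myo7a, the myosin of the upper tip link, was very even among the OHC pools, with a CPM coefficient of variation of 5.95%. Between the cell types 2 of the 27 were OHC-higher (Pcdh15 and Myo6) and 5 IHC-higher (Gfi1, Calb2, Pvalb, Espn and Xirp2). The shares over all genes tested were 2.46% and 3.96%. The median log2 difference of the 27 was -0.42.

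Of 11 mechanotransduction genes, 9 averaged at least 1 TPM and 9 were tested. Cib2, a calcium-binding partner of the channel, was the most abundant at 1059.8 ± 156 TPM, and Lhfpl5, which links the channel to the tip link, followed at 379.9 ± 96.3 TPM. The tip-link proteins Cdh23 and Pcdh15 were nearly level per length, at 179 ± 24.3 TPM and 177 ± 23.6 TPM. For the channel subunits, Tmc2 was at 138, 62.3, 106, 99.1, 154 and 64.9 TPM in OHC replicates 1 to 6, and Tmc1 at 37.9, 8.77, 15.8, 20.5, 4.49 and 14.2 TPM. Tmc2 exceeded Tmc1 in each of the 6 pools. Pcdh15 and Pkhd1l1, a coat protein of stereocilia, were OHC-higher, with log2 differences of 0.85 ± 0.17 (SE), adjusted p = 0.0051, and 1.13 ± 0.25 (SE), adjusted p = 0.0092. Tmie was IHC-higher, with a log2 difference of -1.18 ± 0.30 (SE), adjusted p = 0.020, and that call was lost without OHC replicate 6. Cib3 had no count in any OHC pool and Tmem132e at most 3 counts.

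The hair bundle and actin core list of 35 genes had a median of 117 TPM, and all averaged at least 1 TPM. After Actb and Ptprq its highest members were Grxcr1 (1574 ± 182 TPM) and Grxcr2 (1242 ± 216 TPM), which shape stereocilia. In the test 3 members were OHC-higher, 4 IHC-higher and 28 not called, beside 2.46% and 3.96% of all genes tested. The median log2 difference of the 35 was -0.05. The OHC-higher ones were Myo3a, Adgrv1 and Lcp1. Myo3a, a myosin of stereocilia tips, had a lowest, median and highest level of 329.8, 498 and 541 CPM in OHC pools, and 86.6, 161 and 210.3 CPM in IHC pools. Its relative Myo3b had a lowest, median and highest level of 117, 177 and 247 CPM in OHC pools, and 158, 242 and 292 CPM in IHC pools (log2 difference -0.38, adjusted p = 0.32). Lcp1, the actin bundler plastin 2, stood at 15.2, 1.72, 25.9, 12.2, 1.21 and 16.6 CPM in OHC replicates 1 to 6 and at most 0.155 CPM in any IHC pool, and replicates 2 and 5 were its 2 low OHC pools. The summed endothelial markers were likewise lowest in OHC replicates 2 and 5 and highest in replicate 3 (134, 49.5, 481, 137, 68.8 and 126 CPM in replicates 1 to 6, against 2.07 to 20.01 CPM in IHC pools), and their part in the Lcp1 difference was not tested. The IHC-higher ones were Espn, Espnl, Triobp and Xirp2. For Triobp, an actin bundler of stereocilia rootlets, the values were 515 to 949 CPM in OHC pools and 1259 to 3002 CPM in IHC pools.

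The synaptic genes called by edgeR were all lower in OHC pools. Of 20 listed genes 19 averaged at least 1 TPM and 19 were tested. By edgeR 6 were IHC-higher, beside 3.96% of all genes tested, 0 OHC-higher and 13 not called. Their median log2 difference was -0.47. DESeq2, the alternative test, called 8 IHC-higher and 1 OHC-higher. Otof and Slc17a8 are also on the IHC marker list, which was chosen with earlier results of these data known. Markers of spiral ganglion neurons, among which Snap25 is also a synaptic gene, moved the same way, with 6 of the 7 tested IHC-higher and sums of 477 to 859 CPM in OHC pools against 1728 to 2895 CPM in IHC pools, and their part in this result was not tested. Otof, the calcium sensor of vesicle release, was still the most abundant of them in OHC pools at 507 ± 142 TPM. Its CPM ranges, 514 to 975 CPM in OHC pools and 2059 to 5568 CPM in IHC pools, did not overlap. Slc17a8, the vesicular glutamate transporter of IHCs, was uneven at 18.8, 2.31, 52.5, 35.1, 2.03 and 11.8 CPM in OHC replicates 1 to 6, and 251 to 406 CPM in IHC pools. Cacna1d and Cacnb2, subunits of the presynaptic calcium channel, were at 150.2 ± 8.27 TPM and 133 ± 11 TPM and even among OHC pools, with CPM coefficients of variation of 11% and 12.4%. Of the acetylcholine receptor subunits, Chrna9 and Chrna10, which serve efferent input, were at 68.5 to 198 CPM and 71.1 to 182 CPM in OHC pools (adjusted p = 0.20 and 0.92), whereas Chrna1 and Chrng were IHC-higher, with log2 differences of -2.63 ± 0.27 and -2.10 ± 0.21 (SE, adjusted p = 3.8e-06 for both).

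Transcription factors of the hair cell list covered a wide range of levels. Of 29 genes 28 were tested. Of these 6 were OHC-higher (Insm1, Bcl11b, Neurod6, Prox1, Zfp503 and Zbtb20), 6 IHC-higher (among them Gfi1, Sox4, Gata3, Rorb and Casz1) and 16 not called. The shares over all genes tested were 2.46% and 3.96%. Leaving out 1 library at a time gave 4 to 7 IHC-higher members, with Casz1 lost in 9 and Sox4 in 5 of the 12 fits. Prox1, a homeobox factor, had a lowest, median and highest level of 237, 318 and 378 CPM in OHC pools, and 9.94, 30.6 and 118 CPM in IHC pools. Zfp503 had a lowest, median and highest level of 76.1, 115 and 131 CPM in OHC pools, and 0.0455, 0.271 and 10.8 CPM in IHC pools. Zbtb20 had the smallest log2 difference of the 6, 0.90 ± 0.21 (SE), adjusted p = 0.014. Neurod1, the related bHLH factor of spiral ganglion neurons, had no count in any OHC pool. Ikzf2, which drives later OHC maturation, stood at 7.06, 10.1, 34.8, 0.461, 0.339 and 7.12 CPM in OHC replicates 1 to 6. These Ikzf2 values covered the range of the IHC pools (1.97 to 32.4 CPM).

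Genes known from mature OHCs were present but mostly low. Of 15 such genes all averaged at least 1 TPM, 3 averaged at least 100 TPM and the median was 27.9 TPM. Slc26a5 stood at 20.4, 4.21, 8.59, 20.2, 25.7 and 20.6 CPM in OHC replicates 1 to 6, with replicate 2 lowest, and 0 to 2.70 CPM in IHC pools. Its log2 difference was 4.65 ± 1.22 (SE), adjusted p = 0.026, and the call was lost without OHC replicate 1, 5 or 6 (adjusted p 0.050 to 0.053). Ocm, the calcium buffer oncomodulin, stood at 0.0633, 0.0905, 5.58, 0.0419, 0.0484 and 0.0344 CPM, so a single pool, replicate 3, held nearly all of its counts. Cacng2, a channel auxiliary subunit, had a lowest, median and highest level of 17.5, 35.9 and 136 CPM in OHC pools and at most 0.197 CPM in any IHC pool. Of the 13 tested genes of this list 4 were OHC-higher (Slc26a5, Cacng2, Lbh and Dnm3), beside 2.46% of all genes tested, and 0 IHC-higher. Without OHC replicate 1 the OHC-higher count was 2.

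Grouping genes by symbol after the levels had been seen gave a view of families. Of 94 potassium channel genes 36 averaged at least 1 TPM, led by Kcnh2 (222 ± 65 TPM) and Kcnh7 (203 ± 24 TPM). Of the 34 tested 8 were IHC-higher and 1 OHC-higher, beside 3.96% and 2.46% of all genes tested. One of the 8, Kcna10, had 75.6 to 373 TPM in OHC pools and a log2 difference of -2.37 ± 0.41 (SE), adjusted p = 0.0012. Of 18 genes in the sodium channel group, Scn11a was the most abundant at 181 ± 39.6 TPM. Claudins, which seal the epithelium, were led by Cldn9 at 1255 ± 236 TPM and Cldn6 at 256 ± 96.4 TPM. Connexins, which join supporting cells, were led by Gjb2 (4.02 to 115 TPM), followed by Gjb6 (0.187 to 15 TPM). Of 45 proteasome genes tested 5 were OHC-higher and 0 IHC-higher, beside 2.46% and 3.96% of all genes tested. The median log2 difference of the 45 was 0.36. Psma5, the most abundant of them, had a log2 difference of 1.82 ± 0.37 (SE), adjusted p = 0.0046. None of 39 Hox genes averaged 1 TPM, and of 1187 olfactory receptor genes 92 had a count and 10 averaged at least 1 TPM.

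Non-coding RNAs were few in kind but some were abundant. Of 9657 lncRNAs 793 had a count in all 6 OHC pools and 133 averaged at least 10 CPM. Malat1, a nuclear lncRNA, stood at 941, 3988, 1756, 1334, 1769 and 1806 CPM in OHC replicates 1 to 6, so replicate 2 was more than 2-fold above every other OHC pool. Xist, which is transcribed in female cells, stood at 174, 838, 497, 168, 77.8 and 131 CPM, again highest in replicate 2. The 4 Y-linked genes Ddx3y, Eif2s3y, Kdm5d and Uty had counts in every OHC pool (Ddx3y at 12.4 to 27.9 CPM). By contrast Oip5os1 was even, at 361 to 369 CPM in 5 pools and 280 CPM in replicate 6. Of 13648 pseudogenes 41 averaged at least 10 CPM, led by Gm18589 (168 to 322 CPM), and counts of such near copies are uncertain.

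Among small non-coding RNAs 40 of 5749 genes had a count in all 6 OHC pools. Libraries of this kind do not capture mature microRNAs well. The 3 members of this cluster are shown because they are the microRNAs best known from hair cells, with the seed (bases 2 to 8) in capitals, from RefSeq (GRCm38.p6).
miR-183-5p: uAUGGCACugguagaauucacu
miR-96-5p: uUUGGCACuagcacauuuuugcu
miR-182-5p: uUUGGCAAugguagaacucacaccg
At their hairpin genes Mir183 and Mir182 had 0 counts in all 6 OHC pools and Mir96 had 0 to 1.41 CPM. Reads of the mature forms were not measured. The small RNA gene with the most counts was Mir6236 (chromosome 9, 110110355-110110477), whose annotated mature sequence is given for that reason.
miR-6236: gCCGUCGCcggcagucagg
Mir6236 stood at 1857, 2172, 1044, 2599.9, 2028 and 2653 CPM in OHC replicates 1 to 6 and at 11183, 263, 685, 1104, 915 and 967 CPM in IHC replicates 1 to 6. Lars2, a mitochondrial leucyl-tRNA synthetase gene, stood at 3184, 4647, 2432, 5613, 5261 and 4734 CPM in OHC pools and 25623, 869, 2587, 2376, 1971 and 2982 CPM in IHC pools. The 18S rRNA gene Rn18s-rs5 took 2.49% to 6.30% of counts on genes in OHC pools and 17.7% in IHC replicate 1. IHC replicate 1 was the highest of all 12 libraries for all 3, and among OHC pools replicate 3 was the lowest for all 3. The part of rRNA fragments in the Mir6236 and Lars2 counts was not tested.

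The spread among OHC pools fell as the level rose. It is given as the coefficient of variation (CV) of CPM over the 6 pools for the 8702 protein-coding genes that averaged at least 10 CPM. A pool at 10 CPM has over 206 expected counts, but the filter is on the mean, so single pools can lie lower. The median CV was 37.9% in OHC pools and 49.7% for the same genes in IHC pools. The filter used the OHC mean alone, so genes that were low in IHC pools entered, and nothing is read from the gap between the medians. By level the OHC median was 57.6% for genes of 10 to 30 CPM, 36.8% for 30 to 100 CPM, 24.1% for 100 to 300 CPM, 17.4% for 300 to 1000 CPM and 16.1% above 1000 CPM. In all, 2223 genes (25.5%) stayed within a 2-fold range over the 6 pools, and 889 (10.2%) spanned 10-fold or more. The filter admitted genes from 10.006 CPM upwards and left out those from 9.998 CPM downwards.

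The 10 steadiest genes, chosen by their CV, were Sptbn1, Cers6, Chd4, Arhgef28, Fgfr3, Psip1, Hsp90ab1, Fbxw11, Adipor1 and Rab2a. Sptbn1, a spectrin of the membrane skeleton, stood at 1409, 1517, 1509, 1558, 1486 and 1457 CPM in replicates 1 to 6 (CV 3.46%). Chd4, the ATPase of a chromatin remodelling complex, stood at 638, 588, 603, 653, 622 and 638 CPM (CV 3.90%). In the IHC pools, which the choice did not use, the CVs of the 10 genes ranged from 14.2% for Psip1 to 166% for Fgfr3, with a median of 23.4%. Fgfr3, a growth factor receptor of supporting cells and immature OHCs, stood at 99.5, 110.3, 111, 112, 103 and 107 CPM in OHC replicates 1 to 6 and at 3.84, 6.21, 2.13, 11, 17.6 and 109 CPM in IHC replicates 1 to 6. Thus 5 IHC pools lay below 18 CPM and IHC replicate 6 lay within the OHC range. Its log2 difference was 2.10 ± 0.69 (SE), adjusted p = 0.075, and without IHC replicate 6 it was 3.72 with an adjusted p of 0.00011 in edgeR. The summed supporting cell markers, which include Fgfr3, were 978 CPM in IHC replicate 6 and 708 to 1359 CPM in the other IHC pools. The part of RNA from other cells in the Fgfr3 value was not tested.

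At the other end 292 of the 8702 genes had a CV over 100%. For 220 of them (75.3%) the highest pool was over 2-fold above the next, so 1 pool largely set the value. Choosing genes by a high CV over 6 pools favours this pattern, so nothing further is read from that share. Of the 292 genes the highest pool was replicate 5 for 89, replicate 4 for 79, replicate 3 for 45, replicate 2 for 40, replicate 1 for 28 and replicate 6 for 11. Over all 8702 genes replicate 5 was also the most frequent highest pool (26.4%, beside 30.5% of the 292), followed by replicate 4 (19.1%, beside 27.1%). The 10 most variable genes were Ccdc170, Foxr2, Tk2, P4ha3, Abcc4, Ccdc187, Pou2af3, Alkbh3, Faap24 and Gpatch1. Tk2, the mitochondrial thymidine kinase, stood at 11.3, 6.33, 19.8, 242, 1.94 and 1.82 CPM in replicates 1 to 6. Alkbh3, a nucleic acid demethylase, stood at 4.78, 3.80, 6.66, 136, 1.84 and 13.8 CPM, with replicate 4 again the high pool. P4ha3, a collagen prolyl hydroxylase, stood at 0.443, 0.633, 18.4, 1.22, 105 and 0.516 CPM, with replicate 5 high and replicate 3 next. In IHC pools, which the filter did not use, the median CV of these 10 genes was 98.5%.

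**Figure D4:**
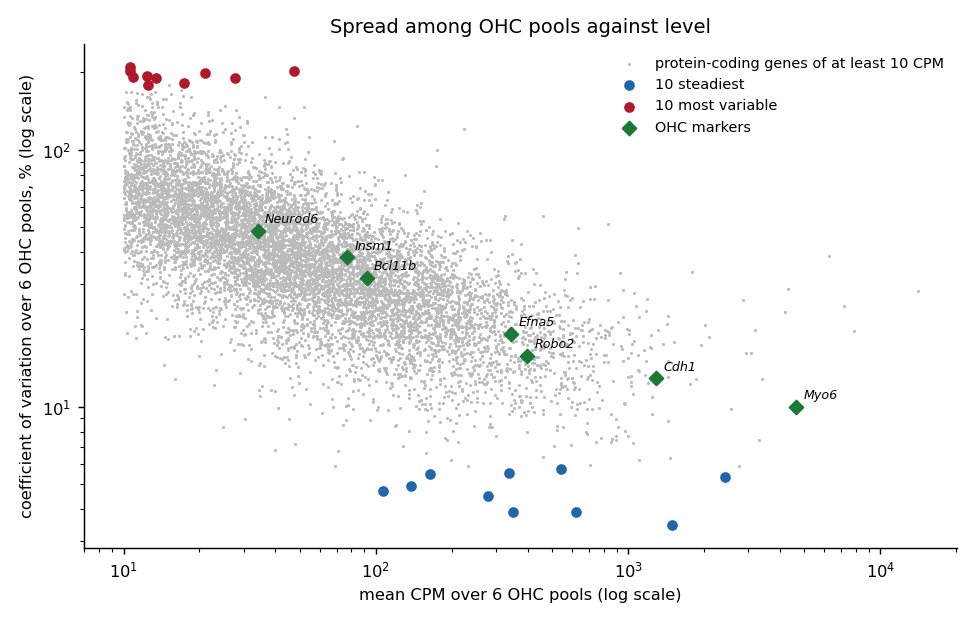
CV over the 6 OHC pools against mean CPM, both on log axes, for 8702 protein-coding genes of at least 10 CPM (grey), with the 10 steadiest (blue), the 10 most variable (red) and the 7 OHC markers (green diamonds) marked. The spread falls with level, and the markers run from Neurod6 (48.5%) to Myo6 (10.01%).

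Among the OHC markers the CV was 48.5% for Neurod6, 38.3% for Insm1, 31.8% for Bcl11b, 19.2% for Efna5, 15.8% for Robo2, 13% for Cdh1 and 10.01% for Myo6, the reverse order of their CPM. The median CV of 17 common reference genes was 31.2%, and examples were 26% for Actb, 17.2% for Gapdh, 37.1% for Hprt1 and 82.8% for B2m. Gapdh was also IHC-higher, with a log2 difference of -0.84 ± 0.20 (SE), adjusted p = 0.013. Over the 8702 genes, Pearson's r of log2(CPM + 1) between OHC pools was 0.764 to 0.875, a description across genes that are not independent replicates. Between an OHC and an IHC pool it was 0.652 to 0.820.

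Immediate early and heat shock genes, which respond to stress or activity, summed to 2764, 2320.4, 2898, 2906, 3065 and 2425 CPM in OHC replicates 1 to 6, with replicate 5 highest and replicate 2 lowest. Among single members, picked after their values were seen, Fosb stood at 2.18, 6.33, 80.4, 29.9, 5.56 and 5.61 CPM in OHC replicates 1 to 6, and replicate 3 was highest for Fosb, Fos, Jun, Junb, Egr1 and Dusp1. Egr1 was the most abundant of these at 659.8 ± 156 TPM. Of 17 tested genes in the immediate early and heat shock list, 1 was OHC-higher (Egr2) and 1 IHC-higher (Junb). The shares over all genes tested were 2.46% and 3.96%, and nothing is read from these counts. The Egr2 call was lost without OHC replicate 2, and the Junb call without IHC replicate 1 (log2 difference -1.70 against -4.50) or OHC replicates 1, 2, 4, 5 or 6.

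Marker lists of other cell types were read in each pool, since a sort can carry such cells or their RNA. All 9 IHC markers were called IHC-higher (8 or 9 when 1 library was left out), beside 3.96% of all genes tested. Their summed level was 633 to 1083 CPM in OHC pools against 3346 to 6975 CPM in IHC pools. Greater epithelial ridge markers summed to 555 to 1493 CPM in OHC pools and 1545 to 3287 CPM in IHC pools, led in OHC pools by Calb1, which hair cells also express, and by Tecta and Tectb, which encode tectorial membrane proteins. Of 8 ridge genes tested 2 were IHC-higher (Tecta and Otog), beside 3.96% of all genes tested. Otog lost its call in 7 of the 12 fits that left out 1 library. Supporting cell markers summed to 423, 373, 801, 822, 652 and 771 CPM in OHC replicates 1 to 6. Among 15 tested Sox2 and Gjb2 were IHC-higher, beside 3.96% of all genes tested. Mesenchyme markers summed to 391 to 567 CPM in OHC pools, led by Pdgfra (224 ± 53.9 CPM) and Col2a1 (184 ± 70.5 CPM). Of 14 spiral ganglion neuron markers 9 averaged at least 1 TPM and 3 at least 100 TPM in OHC pools (Nefl, Nefm and Calb2, the last also on the pan-hair-cell list). Of these 14 genes 7 were tested and 6 were IHC-higher, beside 3.96% of all genes tested, with a median log2 difference of -2.04. The neuronal genes Tubb3, Prph and Scn9a were the 3 of the 14 at the floor, with at most 2 counts in any OHC pool.

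Endothelial markers were the exception, since they were higher in the OHC pools. Their sums were 134, 49.5, 481, 137, 68.8 and 126 CPM in OHC replicates 1 to 6 and 2.07 to 20.01 CPM in IHC pools, so replicate 3 was over 3-fold above the next OHC pool and no OHC pool overlapped an IHC pool. Of 16 genes 11 were tested and 8 were OHC-higher (Cldn5, Pecam1, Cdh5, Kdr, Flt1, Tek, Ptprb and Adgrf5), beside 2.46% of all genes tested. Without OHC replicate 3 the count was 6 (Cdh5 and Flt1 were lost), and it was also 6 without OHC replicate 6. Over the 12 fits that left out 1 library, Flt1 lost its call in 8 and Cdh5 in 4. Cldn5, the claudin of vessel walls, stood at 12.1, 0.679, 35, 2.89, 4.40 and 18.7 CPM in OHC replicates 1 to 6, and had no count in any IHC pool. Kdr, a VEGF receptor, stood at 5.63, 5.38, 60.8, 12.5, 8.37 and 1.99 CPM, and at most 0.177 CPM in an IHC pool. All 16 genes had more than 3 counts in at least 1 OHC pool. Set beside the OHC markers, which summed to 6932, 7373, 5730.4, 6948, 7027 and 7181 CPM, replicate 3 was the highest pool for the endothelial list and the lowest for the OHC list. Myo6 held most of the OHC sum (4633 ± 464 CPM, and 3809.7 CPM in replicate 3). Bcl11b and Cdh1 were also lowest in replicate 3, and Robo2 was lower only in replicate 6. Without replicate 3 the mean of Bcl11b rose from 92.2 to 99.4 CPM and that of Cdh1 from 1287 to 1324 CPM. In contrast Insm1, Neurod6 and Efna5 were mid-range in replicate 3. The part of endothelial RNA in other OHC-higher genes was not tested.

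The lists for other types were low. Glia markers summed to 21.5 to 91.9 CPM, pericyte markers to 25.5 to 50.04 CPM, macrophage markers to 1.81 to 20.4 CPM, melanocyte markers to 2.40 to 23.3 CPM and erythroid markers to at most 4.61 CPM in OHC pools. Defining genes such as Csf1r and Tyrobp for macrophages and Tyr for melanocytes had no count in any OHC pool. Other members did have counts. Of 12 macrophage markers 8 had at most 3 counts in every OHC pool, and 3 averaged at least 1 TPM. Of 7 melanocyte markers 4 were at that floor, and 1 averaged at least 1 TPM. Cycling cell genes summed to 69.8 to 128 CPM in OHC pools and 50.4 to 118 CPM in IHC pools. By edgeR 0 of the 8 tested were called, beside 2.46% of all genes tested called OHC-higher and 3.96% IHC-higher.

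**Figure D5:**
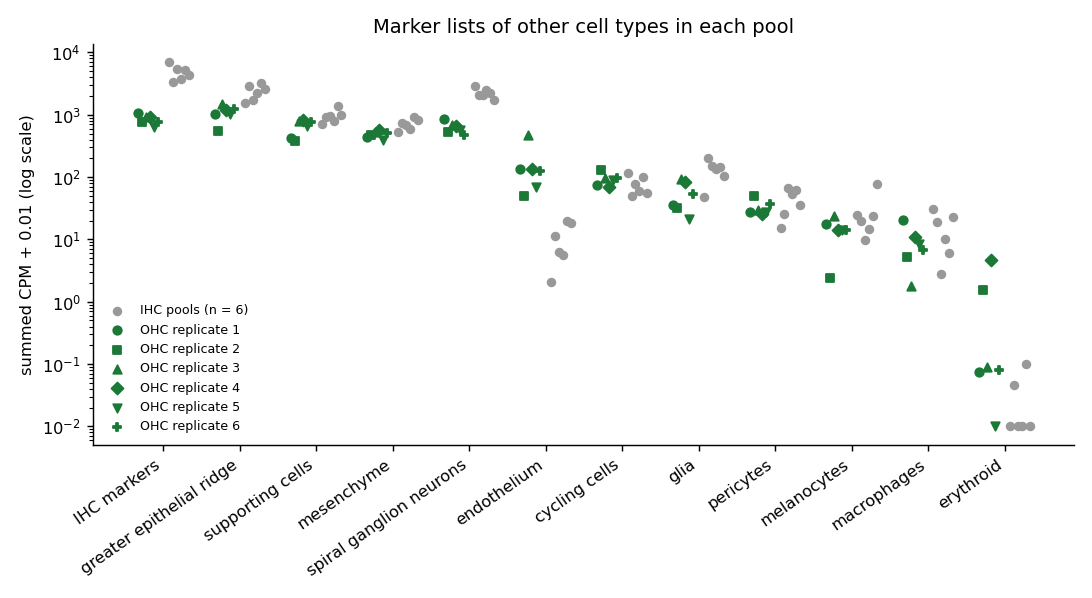
Summed CPM plus an offset of 0.01, on a log axis, of marker lists of IHCs and 11 other groups of cells or genes in each OHC pool (green, 1 symbol per replicate) and each IHC pool (grey). Endothelium is the 1 list whose OHC pools (49.5 to 481 CPM) lie wholly above the IHC pools (2.07 to 20.01 CPM).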

How the data were processed

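The authors deposited raw read counts per gene, 1 file per library, made per the labels and the submitters' processing notes with Trimmomatic, STAR and HTSeq on GRCm39 with the GENCODE vM27 annotation named in the study's methods. Tool versions and the strand setting are not given in the sources used here. RNA was amplified with random hexamers and depleted of rRNA, with no molecular identifiers. The counts of 55416 genes were used without the 5 summary lines and without 356 rRNA genes, which left 55060. Gene names, classes and lengths came from GENCODE vM39 (98.8% of genes and 99.97% of counts matched). OHC libraries held 21162439 to 29088104 counts, and a gene at 10 CPM in a given library had over 206 expected counts there.

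CPM used TMM-scaled library sizes, and TPM the union exon length of protein-coding genes. OHC and IHC pools were compared with edgeR 4.0.16 (quasi-likelihood, filterByExpr, Benjamini-Hochberg, threshold 0.05, all 12 libraries) in R 4.3.3, with DESeq2 1.42.0 as an alternative. The SE of a log2 difference is not an edgeR output. It was derived as the absolute log2 difference divided by the square root of the quasi-likelihood F statistic. Whole-library quantities were tested with two-sided exact permutation tests over 924 splits (smallest p 0.0022). The scripts were tested on simulated data. Alternatives covered the test, normalization, filter, rRNA, replicate number, depth, length and leaving out each library. Members and gene lists were chosen with earlier results of these data known. Named genes were the 20 nuclear genes of highest TPM, the 13 mitochondrial genes, the 5 most abundant of each non-coding class, the 10 steadiest and 10 most variable genes, and list members. Families were formed from gene symbols after levels had been seen, and the genes given as examples of a family or list were picked after their values were seen. Some genes that meet these rules are not reported here.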

Additional observations from a re-analysis of the deposited data

Results flagged for a closer look

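In 25 of 122 groups of 6 libraries 1 library lay far from the others by Dixon's criterion, which chance alone meets in about 1 of 20 groups. In IHC replicate 1 the small non-coding RNA share was 1.13%, 604 genes held 50% of the counts, and non-rRNA counts were 13565175. Among OHC pools the summed OHC markers were low in replicate 3 (5730.4 CPM), where the summed endothelial markers were high (481 CPM). In replicate 5 the hair bundle list (15688 CPM), the reference genes (13894 CPM), mt-Atp6 (15.8 CPM), mt-Nd3 (0.242 CPM), Atp6-ps (105 CPM) and Rn7sk (439.9 CPM) stood apart, and in replicate 4 the erythroid markers (4.61 CPM). Malat1 was high (3988 CPM) and Gm7964 low (29.2 CPM) in replicate 2, and Oip5os1 was low in replicate 6 (280.5 CPM).

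The other 10 were the most variable genes, which had been chosen for their spread: Ccdc170 at 55.7, Foxr2 at 54.4, Tk2 at 242, P4ha3 at 105, Abcc4 at 61, Ccdc187 at 53.8, Pou2af3 at 66, Alkbh3 at 136, Faap24 at 81.5 and Gpatch1 at 57.9 CPM in their highest OHC pool.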

How the results depend on the processing

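Of the 329 OHC-higher and 529 IHC-higher genes by edgeR, counts rose to 960 and 891 with no filter on low counts (27418 genes tested) and to 1589 and 1339 with DESeq2 (16850 tested). Leaving out 1 library at a time gave 229 to 408 and 377 to 576. With the replicate number as a block (replicate block) the counts were 394 and 527. The replicate numbers gave no sign of pairing: correlations of deviations were -0.03 to 0.02, and 1 of 6 pools correlated best with its own number. Shared pups need not leave a trace in such deviations, so the correlations cannot show whether libraries shared pups. Genes with at least 10 counts differed by 877.5 (p = 0.12 in the exact permutation test). Leaving out 1 library moved the OHC minus IHC difference from 0.117 to 0.256 percentage points for lncRNA, 0.0806 to 0.169 for TEC, 3.87 to 7.75 for reads outside features, and -0.0596 to 0.148 for small non-coding RNA. The last was -0.0171 with all libraries and turned positive without IHC replicate 1 (0.148) and without OHC replicate 3 (0.00635). The cause was not tested. Without TMM 3 of the 10 steadiest genes stayed in that list, and 3 to 6 when 1 OHC pool was left out. Of the 10 most variable genes 3 stayed by the SD of log2(CPM + 1), 0 with a minimum of 50 CPM or of 1 CPM, and 3 to 5 when 1 pool was left out. The other 153 values for the main comparisons kept their direction and side of the threshold, or stayed within the limits set for them. Among these 153 the small non-coding RNA difference without OHC replicate 3 did change sign. Spread was not described for genes under 10 CPM.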
